A study of Mus musculus with 4 samples.

Results

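The genes described here encode the soluble hydrolases of the lysosome, their helper proteins and the main proteins of its membrane, in Mn-treated and untreated N2a cells. They were chosen by symbol for their lysosomal role, with earlier results of these data known, and all 52 symbols were found among the 22287 genes of the mRNA table. Of these 52 genes, 51 had at least 20 reads over both libraries together and are called measured, as were 11865 genes in all. The 52 comprise 14 glycosidases, 5 sulfatases, 9 proteases, 9 lipid enzymes and activators, 8 membrane proteins, 4 proteins of the mannose 6-phosphate tag and 3 others. N2a is an established line of mouse neuroblastoma cells, here labelled as of C57BL/6 strain. One group was untreated and the other was grown in MEM medium with 300 µM manganese for 48 h. Of the 4 libraries of the study, the 2 of small RNA were not used here, and each group held 1 total RNA library depleted of ribosomal RNA. All libraries carry the same treatment text, so the titles alone separate treated from untreated cells.

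Lysosomes break down proteins, sugar chains, lipids and nucleic acids in an acidic lumen. Most of their soluble enzymes are made in the endoplasmic reticulum, receive a mannose 6-phosphate tag in the Golgi and are carried onward by receptors that recognise this tag. Heavily glycosylated proteins such as LAMP1 and LAMP2 line the membrane. Neurons depend on this system, and inherited loss of many of these enzymes causes storage diseases that affect the brain. Many lysosomal genes carry a CLEAR element near their start, a DNA motif around an E-box to which the transcription factor TFEB and its relatives bind.

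The untreated library held 13972437 and the Mn-treated library 14606961 reads assigned to mRNA genes. With 1 library per group, no difference here has a replicate check, and a ratio compares these 2 libraries, not the conditions. Values are the reads of each library and the log2 ratio of Mn-treated over untreated reads, each divided by its library total. Brackets give 95% intervals from an exact binomial calculation and cover counting error only. The middle one of all measured genes had a log2 ratio of 0.18, a ratio of 1.13, so a lysosomal gene is read against that value. Of 16 markers of neuroblastoma and sympathoadrenal cells, 15 were measured, whose summed level, in reads scaled to library size (CPM), was 3416 untreated and 3581 Mn-treated. Tubb3 made up most of this sum, at 2390 and 2308 CPM, and single markers differed, with Ncam1 at a log2 ratio of 1.15, Gap43 at 1.08, Th at 0.91 and Isl1 at -0.88. None of 8 macrophage and microglia markers was measured. Their summed reads were 8 and 28, and Ptprc and Aif1 were at 0 in both libraries. Cd68 had 3 and 8 reads, Itgam and C1qa 0 and 6 each, Csf1r 1 and 5, Adgre1 1 and 3, and Tyrobp 3 and 0. The summed reads of 6 glia markers were 206 and 328, of which Mbp had 189 and 309, and Aqp4 and Slc1a3 were at 0 in both. Those of 6 fibroblast markers were 50 and 76, with Lum at 0 in both. Col1a1 had 42 and 33 reads, Col3a1 0 and 18, Dcn 3 and 9, Pdgfra 5 and 11, and Col1a2 0 and 5. The summed reads of 3 endothelial markers were 70 and 78. The part of such cells in the results was not tested.

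Promoter sequences were examined to describe where a known element of lysosomal genes lies in these genes. RefSeq windows on GRCm38.p6, from 250 bases before to 50 after the annotated start, were matched for 44 of the 52 genes. The entries of Aga, Asah1, Ctsb, Ctsh, Galns, Laptm4b, M6pr and Npc1 were not matched. An E-box core, CACGTG on either strand, was in at least 1 window of 15 of the 44 genes (34.1%), against 1110 of 9317 measured genes (11.9%). The longer TCACGTG, which contains that core, was in 13 genes (29.5% against 7.07%). The CLEAR-type GTCACGTG, which contains both and was searched with its reverse complement CACGTGAC, was in 12 genes (27.3%) against 458 measured genes (4.92%). Of all 32851 promoter windows of the same length, 7.15%, 3.77% and 2.25% held the 3 motifs. Median GC content was 56.8% in the lysosomal genes and 61.3% in the measured genes. The CLEAR element was defined on lysosomal promoters, so its presence here is background rather than a result of these libraries. The 14 matching stretches of these 12 genes are shown from the highest to the lowest log2 ratio, each 5′ to 3′ on the strand of the gene, with the GTCACGTG match or its reverse complement in capitals.
Gla (chrX:134601178-134601217, minus strand): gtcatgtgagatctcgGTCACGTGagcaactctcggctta
Arsa (chr15:89477419-89477458, minus strand): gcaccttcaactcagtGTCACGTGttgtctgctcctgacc
Ctsd (chr7:142387902-142387941, minus strand): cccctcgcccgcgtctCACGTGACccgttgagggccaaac
Ctsd (chr7:142388049-142388077, minus strand): tccccCACGTGACctgtatccagtcattc
Sgsh (chr11:119355516-119355555, minus strand): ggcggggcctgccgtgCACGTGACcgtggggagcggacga
Lamp1 (chr8:13159117-13159156, plus strand): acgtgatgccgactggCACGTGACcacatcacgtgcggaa
Gnptg (chr17:25240114-25240153, minus strand): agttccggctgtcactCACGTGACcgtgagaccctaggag
Ctsa (chr2:164833743-164833782, plus strand): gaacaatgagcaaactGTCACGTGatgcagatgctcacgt
Ctsa (chr2:164833762-164833801, plus strand): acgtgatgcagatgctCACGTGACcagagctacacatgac
Glb1 (chr9:114401012-114401051, plus strand): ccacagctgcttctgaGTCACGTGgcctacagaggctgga
Naglu (chr11:101070003-101070042, plus strand): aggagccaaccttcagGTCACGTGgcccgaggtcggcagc
Lgmn (chr12:102439120-102439159, minus strand): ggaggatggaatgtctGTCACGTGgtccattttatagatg
Cln3 (chr7:126583334-126583375, minus strand): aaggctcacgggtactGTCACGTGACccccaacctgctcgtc
Nagpa (chr16:5203984-5204023, minus strand): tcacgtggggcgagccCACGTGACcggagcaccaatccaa

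In Cln3 the matches on both strands overlapped and gave 10 capital bases. Ctsa and Ctsd each had 2 separate stretches. Of the 14 stretches, 12 began within 130 bases of the annotated start, and those of Gla and the second of Ctsd lay 196 and 245 bases before it. The Lamp1 window held 4 E-box cores, of which 1 is part of GTCACGTG. Among the measured genes with a window, the 12 with GTCACGTG had a median log2 ratio of 0.44, and the 32 without it one of 0.43. These medians were nearly equal, and the carriers ran from Nagpa at -0.59 to Gla at 0.96. Among all measured genes with a window, the median was 0.25 for the 458 with the motif and 0.17 for the 8859 without it.

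**Figure D1:**
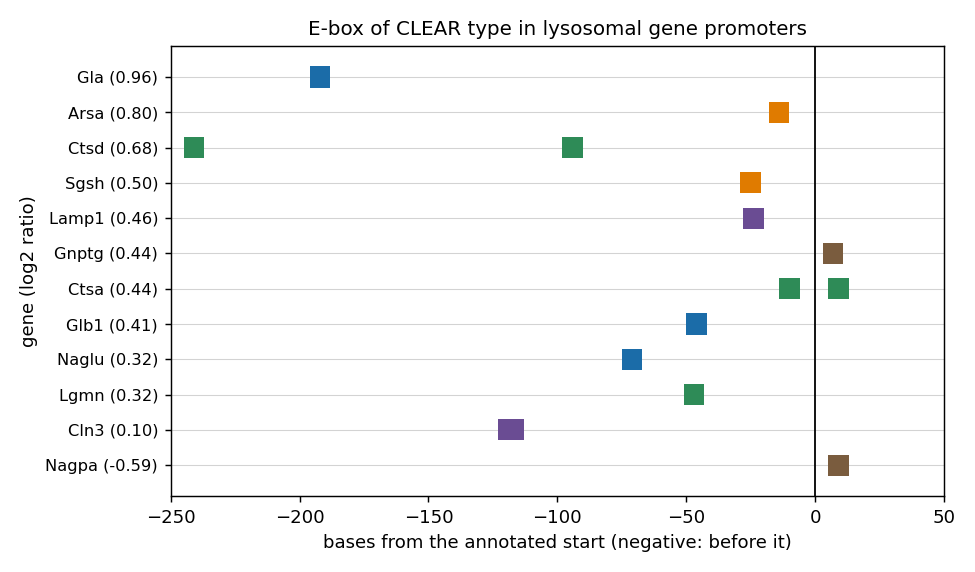
Position of each GTCACGTG match, or its reverse complement, in the promoter windows of 12 lysosomal genes. The x axis gives bases from the annotated start, each block is 1 match (10 bases in Cln3), rows are ordered by the log2 ratio in parentheses, and colours mark the roles. The carriers run from Gla (0.96) to Nagpa (-0.59), and Lipa, Lamp2, Idua and Ctsf, which have higher ratios, hold no match.

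Taken over all roles, lysosomal transcripts were more abundant in the Mn-treated library by a modest amount. The median log2 ratio of the 51 measured genes was 0.46, a ratio of 1.37, against 0.18 for all measured genes. Of the 51, 48 were above 0, where 7693 of the 11865 measured genes were. Above the middle gene were 43 of them (84.3%). At 1.5-fold, 18 genes (35.3%) were higher, where 21.6% of all measured genes were, and 1 gene, Nagpa, was lower, where 5.98% were. The remaining 32 lay within 1.5-fold. These are bulk libraries, in which a change in RNA per cell and a change in the make-up of the culture cannot be told apart.

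Most of these differences were small. At 2-fold, 6 genes were higher and 0 lower, where 7.23% and 1.7% of all measured genes were. These 6 were Npc1, Lipa, Ctsb, Lamp2, Idua and Ctsf. With 0 untreated reads, Npc1 could be measured only through the Mn-treated library, so its place here was set by the read minimum. It is also among the genes counted as higher at 1.5-fold. The whole counting interval lay above the middle gene for 37 genes and below it for 3, against 28.9% and 31.1% of all measured genes. Deeper genes have narrower intervals, and the lysosomal genes had a median of 1233 reads over both libraries against 662 for all measured genes. Over genes with at least 100 reads, 16 of 49 lysosomal genes (32.7%) passed 1.5-fold on the higher side and 1 on the lower, where 18.8% and 4.65% of all such genes did. When both libraries were scaled so that the middle gene had a ratio of 1, 10 lysosomal genes passed 1.5-fold on the higher side and 1 on the lower, where 13.3% and 11.3% of all measured genes did.

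**Figure D2:**
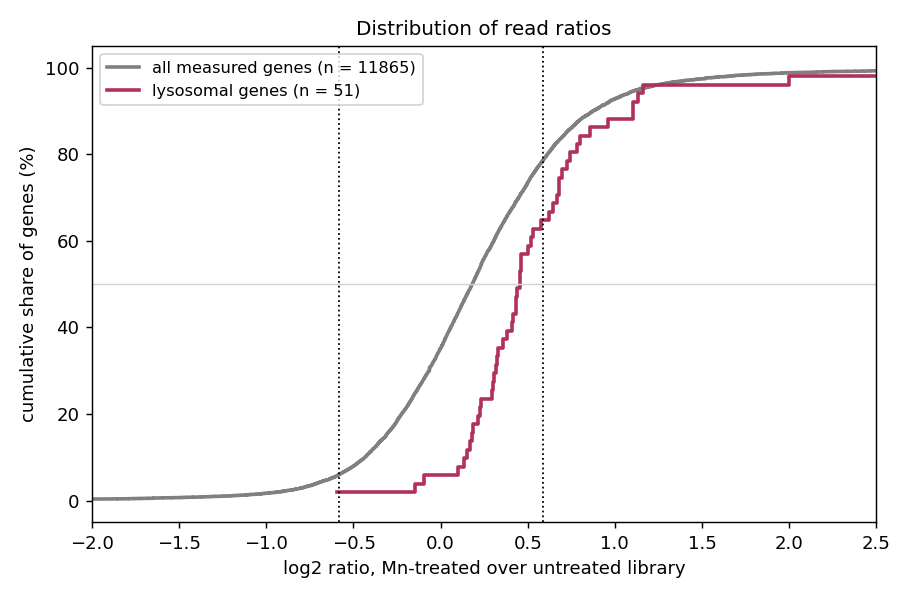
Cumulative share of genes (%) against the log2 ratio of the Mn-treated over the untreated library, for 51 lysosomal and 11865 measured genes. Dotted lines mark 1.5-fold, and the x axis is limited to -2 to 2.5. The lysosomal curve lies to the right at its middle (0.46 against 0.18), and the curves meet just above the ratio of Ctsb (1.16).

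**Figure D3:**
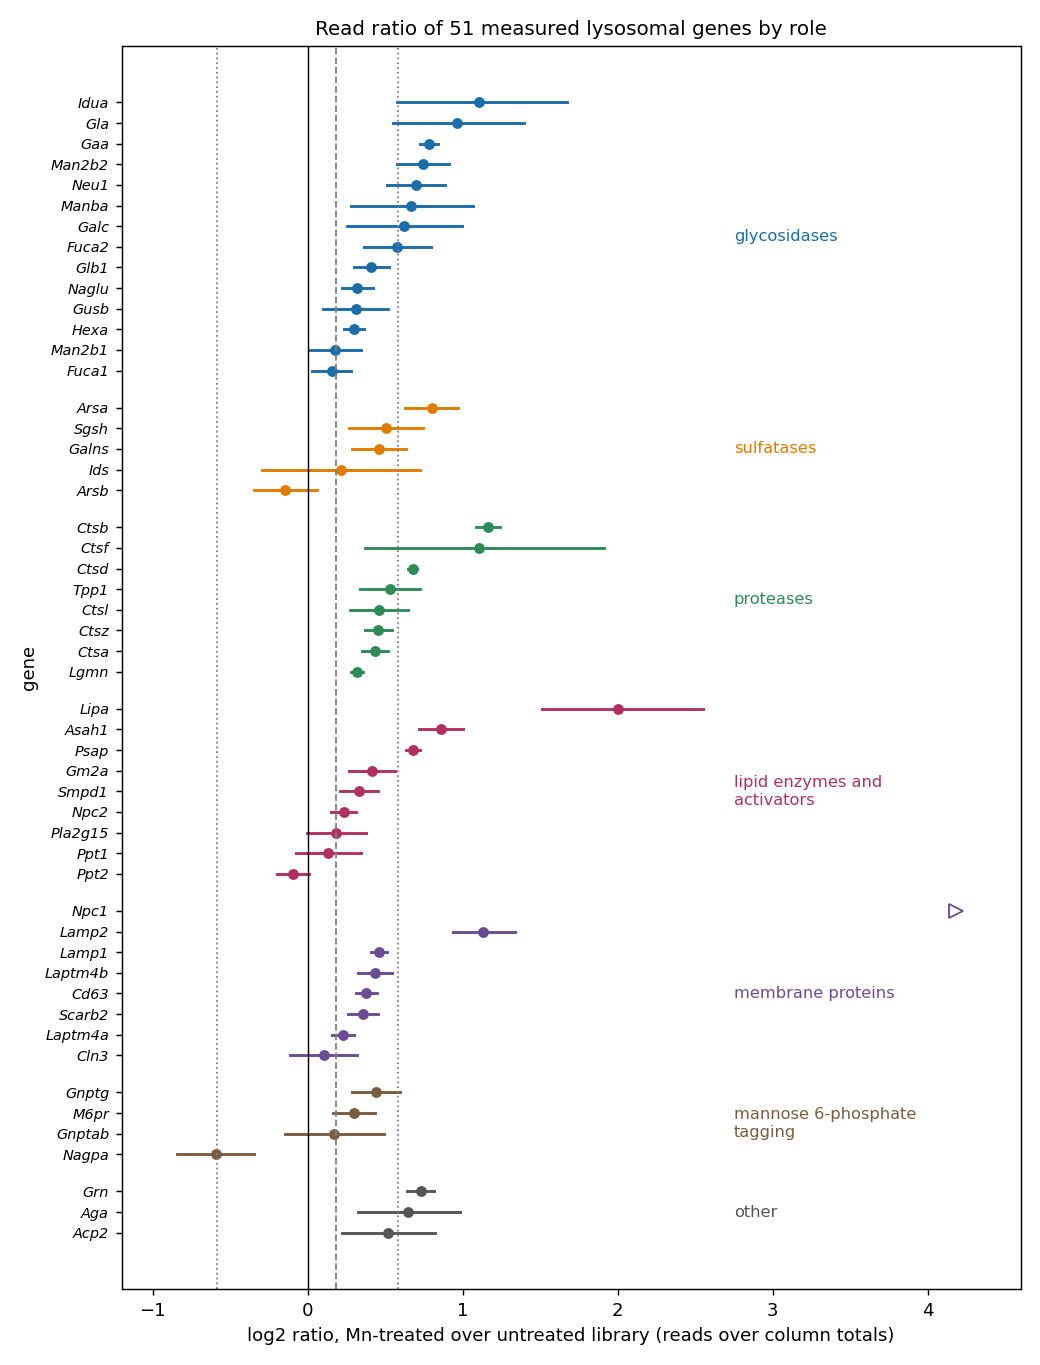
Log2 ratio of each measured lysosomal gene (points) with its 95% counting interval (bars), grouped by role and coloured likewise. The solid line is 0, the dashed line the middle gene (0.18), dotted lines mark 1.5-fold, and the open triangle is the lower bound for Npc1, which had 0 untreated reads. Nagpa is the one gene past 1.5-fold on the lower side.

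Glycosidases, which cut sugars from glycogen, glycoproteins, glycolipids and glycosaminoglycans, had a median log2 ratio of 0.60. At least 1.5-fold higher were 7 of 14, where 21.6% of all measured genes were, and 0 were lower. With the middle gene set to 1, 3 of 14 passed, where 13.3% of all measured genes did. Gaa, the acid alpha-glucosidase that degrades glycogen, had 3763 untreated and 6757 Mn-treated reads, giving a log2 ratio of 0.78 [0.72 to 0.84]. Among the glycosidases it was the one with most Mn-treated reads. Idua, which removes iduronic acid from heparan and dermatan sulfate, had the highest ratio of the class with 42 and 95 reads, giving a log2 ratio of 1.10 [0.58 to 1.67]. Gla, the alpha-galactosidase that acts on globotriaosylceramide, had 72 and 147 reads, giving a log2 ratio of 0.96 [0.55 to 1.39]. Both rest on few reads, and their intervals are wide.

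Man2b2, an alpha-mannosidase, had 465 and 815 reads, giving a log2 ratio of 0.74 [0.58 to 0.91]. Neu1, the lysosomal sialidase, had 372 and 631 reads, giving a log2 ratio of 0.70 [0.51 to 0.89]. Manba, the beta-mannosidase, had 89 and 148 reads, at 0.67. Galc, which removes galactose from the myelin lipid galactosylceramide, completed the higher group with 100 and 161 reads, at 0.62. Fuca2, an alpha-fucosidase, stood just inside 1.5-fold with 285 and 445 reads, a ratio of 1.49.

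The other 6 glycosidases were closer to the middle gene. Glb1, the beta-galactosidase, had 1113 and 1548 reads, giving a log2 ratio of 0.41 [0.30 to 0.52]. Naglu, an enzyme of heparan sulfate breakdown, was at 0.32 with 1366 and 1784 reads. Gusb, the beta-glucuronidase, was at 0.31 with 332 and 430 reads. Hexa, the alpha subunit of beta-hexosaminidase, had 3540 and 4553 reads, giving a log2 ratio of 0.30 [0.24 to 0.36]. Thus Hexa, the most abundant glycosidase per length in both libraries, was among those with the smaller ratios. Man2b1, the major lysosomal alpha-mannosidase, was at 0.18 with 547 and 647 reads, on the middle gene. Fuca1, the alpha-fucosidase of tissues, was at 0.15 with 1000 and 1163 reads.

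Sulfatases remove sulfate from glycosaminoglycans and sulfatide, and 1 of 5 was at least 1.5-fold higher, a share close to the 21.6% of all measured genes. That was Arsa, which hydrolyses sulfatide, with 437 and 796 reads, giving a log2 ratio of 0.80 [0.63 to 0.97]. Arsb, which acts on dermatan and chondroitin sulfate, lay on the other side of 0 with 407 and 385 reads, giving a log2 ratio of -0.14 [-0.35 to 0.06]. Between these extremes were Sgsh, the heparan sulfamidase, with 245 and 363 reads at 0.50, and Galns, which acts on keratan sulfate, with 456 and 655 at 0.46. Ids, the iduronate sulfatase, had 61 and 74 reads, at 0.21, and its interval of -0.29 to 0.73 covers both 0 and 1.5-fold. The median of the class was 0.46.

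All 8 measured proteases had counting intervals that lay entirely above the middle gene, where 28.9% of all measured genes did. Deeper genes have narrower intervals, and all of these but Ctsf exceeded 662 reads over both libraries, the median of all measured genes. At least 1.5-fold higher were 3 of 8, where 21.6% of all measured genes were, and the class median was 0.50. When the middle gene was set to 1, 2 of 8 passed, where 13.3% of all measured genes did. Ctsd, an aspartic protease, had the most reads of all the lysosomal genes, with 13966 untreated and 23359 Mn-treated, a log2 ratio of 0.68 [0.65 to 0.71]. Ctsb, a cysteine protease, had 1982 and 4636 reads, giving a log2 ratio of 1.16 [1.09 to 1.24]. This was the largest ratio among the genes with at least 1000 reads in the Mn-treated library. Ctsf, another cysteine protease, had 22 and 50 reads, at 1.10 [0.37 to 1.91].

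The other proteases were within 1.5-fold. Tpp1, the tripeptidyl peptidase lost in a form of neuronal ceroid lipofuscinosis, had 375 and 566 reads, at 0.53. Ctsl, a cysteine endopeptidase, was at 0.46 with 400 and 576 reads. Ctsz, a carboxypeptidase, had 1894 and 2715 reads, also at 0.46. Ctsa, the carboxypeptidase that protects Neu1 and Glb1 in a complex, had 1952 and 2759 reads, at 0.44. Lgmn, the asparaginyl endopeptidase that processes cathepsins, had 9256 and 12073 reads and the smallest ratio of the class, at 0.32 [0.28 to 0.36]. The widest contrast among the well-covered proteases was thus between Ctsb and Lgmn, whose intervals did not overlap. Ctsh, an aminopeptidase, had 0 and 1 reads and was not measured. A count of 0 allows a share of up to 2.15e-05% of the untreated reads.

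Lipid enzymes and activators spanned a wide range, from -0.09 to 2.0, with a median of 0.33. At least 1.5-fold higher were 3 of 9, where 21.6% of all measured genes were. When the middle gene was set to 1, 2 of 9 passed, where 13.3% of all measured genes did. Lipa, the acid lipase that frees cholesterol and fatty acids from lipoprotein lipids, had 40 and 169 reads, giving a log2 ratio of 2.0 [1.51 to 2.55]. Its reads were few, but its interval does not reach that of any other measured gene of the class. Asah1, the acid ceramidase, had 637 and 1208 reads, at 0.86 [0.72 to 1.00]. Psap, the precursor of the saposins that present sphingolipids to their hydrolases, had 6298 and 10526 reads, at 0.68 [0.63 to 0.72].

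Gm2a, the activator that lifts ganglioside GM2 to beta-hexosaminidase, had 618 and 861 reads, at 0.41. Smpd1, the acid sphingomyelinase, had 971 and 1275 reads, at 0.33. Npc2, the soluble carrier that hands cholesterol to NPC1, had 2221 and 2726 reads, at 0.23 [0.15 to 0.31]. These 3 were above 0 but within 1.5-fold. Pla2g15, a phospholipase, was at 0.18 with 430 and 511 reads, on the middle gene. Ppt1, which removes palmitate from proteins, was at 0.13 with 349 and 400 reads. Ppt2, a related thioesterase, was at -0.09 [-0.20 to 0.01] with 1518 and 1488 reads, below the middle gene.

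Among the membrane proteins 2 of 8 were at least 1.5-fold higher, a share close to the 21.6% of all measured genes, and the class median was 0.41. The same 2 passed with the middle gene set to 1, where 13.3% of all measured genes did. Of these, Npc1 had 0 untreated reads, so it could reach the read minimum only through the Mn-treated library. Its place on the higher side was thus set by that minimum. Among the other 7 membrane proteins Lamp2 alone passed, and their median was 0.38. Lamp2, a membrane glycoprotein with a role in chaperone-mediated autophagy, had 299 and 686 reads, giving a log2 ratio of 1.13 [0.94 to 1.33]. Lamp1, its more abundant relative, had 4780 and 6879 reads, at 0.46 [0.41 to 0.51]. Both were higher in the Mn-treated library, and their intervals did not overlap.

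The other higher gene was Npc1, the cholesterol exporter of the lysosomal membrane, with 0 and 57 reads. Against a floor of 3 counts in the untreated library this was at least 18.2-fold higher, and the lower end of its counting interval was 14.3-fold. Its estimated count was fractional before rounding, and the value is uncertain. At an FPKM of 0.45 it was among the scarcest transcripts of the set even in the Mn-treated library.

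Laptm4b, a small membrane protein, was at 0.43 with 1176 and 1660 reads. Its relative Laptm4a was at 0.23 with 2830 and 3465 reads. Cd63, a tetraspanin of late endosomes and lysosomes, had 3079 and 4185 reads, at 0.38 [0.31 to 0.45]. Scarb2, the receptor that carries glucocerebrosidase to the lysosome, had 1441 and 1929 reads, at 0.36. Cln3, a membrane protein lost in juvenile neuronal ceroid lipofuscinosis, had 343 and 385 reads, at 0.10 [-0.11 to 0.32]. Of these 5 genes, all but Cln3 were above the middle gene, though the interval of Laptm4a, 0.16 to 0.30, covers it.

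The 4 genes of the mannose 6-phosphate tag had a median log2 ratio of 0.23. Of them, 0 were at least 1.5-fold higher and 1 lower, where 21.6% and 5.98% of all measured genes were. Nagpa, the uncovering enzyme that exposes the finished tag in the Golgi, had 329 and 228 reads, giving a log2 ratio of -0.59 [-0.84 to -0.35]. It was 1.51-fold lower, just past the threshold, and within it when 5 was added to each count in place of 0.5. Gnptab, the catalytic part of the phosphotransferase that begins the tag, had 152 and 179 reads, at 0.17 [-0.15 to 0.49]. Gnptg, its gamma subunit, had 566 and 803 reads, at 0.44. M6pr, the cation-dependent receptor for tagged enzymes, had 811 and 1042 reads, at 0.30 [0.16 to 0.43]. Nagpa was the one gene of the 4 whose interval lay below 0.

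The 3 remaining genes, of which 2 were at least 1.5-fold higher and 0 with the middle gene set to 1, were all above the middle gene by their whole interval. The shares of all measured genes were 21.6%, 13.3% and 28.9% in that order. Grn, which encodes progranulin, the precursor of the granulin peptides, had 1634 and 2830 reads, giving a log2 ratio of 0.73 [0.64 to 0.82]. Aga, which cuts the bond between asparagine and its sugar chain, had 125 and 205 reads, at 0.65 [0.32 to 0.98]. Acp2, an acid phosphatase, had 156 and 234 reads, at 0.52 [0.22 to 0.82].

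The enzymes were also grouped by substrate, after the values had been seen. Of 10 genes of sphingolipid breakdown (Psap, Gm2a, Asah1, Smpd1, Gla, Galc, Arsa, Hexa, Glb1 and Neu1), 6 were at least 1.5-fold higher, and the median log2 ratio was 0.65. Of 9 genes of glycosaminoglycan breakdown (Gusb, Idua, Ids, Sgsh, Naglu, Arsb, Galns, Glb1 and Hexa), 1 was, and the median was 0.32. Of 9 genes that trim glycoprotein sugar chains (Man2b1, Man2b2, Manba, Fuca1, Fuca2, Aga, Neu1, Glb1 and Hexa), 4 were, and the median was 0.58. Hexa and Glb1 belong to all of these groups and Neu1 to a pair of them. With the middle gene set to 1, 3 genes of sphingolipid breakdown, 1 of glycosaminoglycan breakdown and 0 of glycoprotein trimming passed 1.5-fold, where 13.3% of all measured genes did and 21.6% had by library totals. The difference between the groups was not tested.

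On a scale that allows genes to be compared, the authors' FPKM values (reads scaled to transcript length and library size), 2 proteases, 2 membrane proteins and Psap stood at the top. Ctsd was highest of the set in both libraries, with 275.0 untreated and 445.0 FPKM Mn-treated. Lgmn followed with 197.0 and 250.6, then Cd63 with 129.3 and 177.9, Psap with 99.4 and 160.7, and Lamp1 with 89.8 and 125.0. The order of these 5 was the same in both libraries. Hexa was the highest glycosidase, at 74.3 and 92.4 FPKM, ahead of Gaa at 46.5 and 85.6. Galns was the highest sulfatase in both, at 7.68 and 10.53 FPKM, and Gnptg the highest gene of the tag, at 18.9 and 25.5.

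Some genes changed place. Asah1 had 9.85 and 23.8 FPKM, Ctsb 17.5 and 39.6, and Lamp2 4.99 and 11.8. Among the 52 genes Lamp2 went from rank 37 to rank 25, Ctsb from 19 to 13 and Lipa from 49 to 41. Nagpa went from rank 26 to rank 39, with 7.93 and 4.84 FPKM. Of the 51 measured genes, 47 kept their rank within 5 places. The median FPKM of the measured lysosomal genes was 7.93 untreated and 11.2 Mn-treated, against 4.81 and 5.63 for all measured genes.

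**Figure D4:**
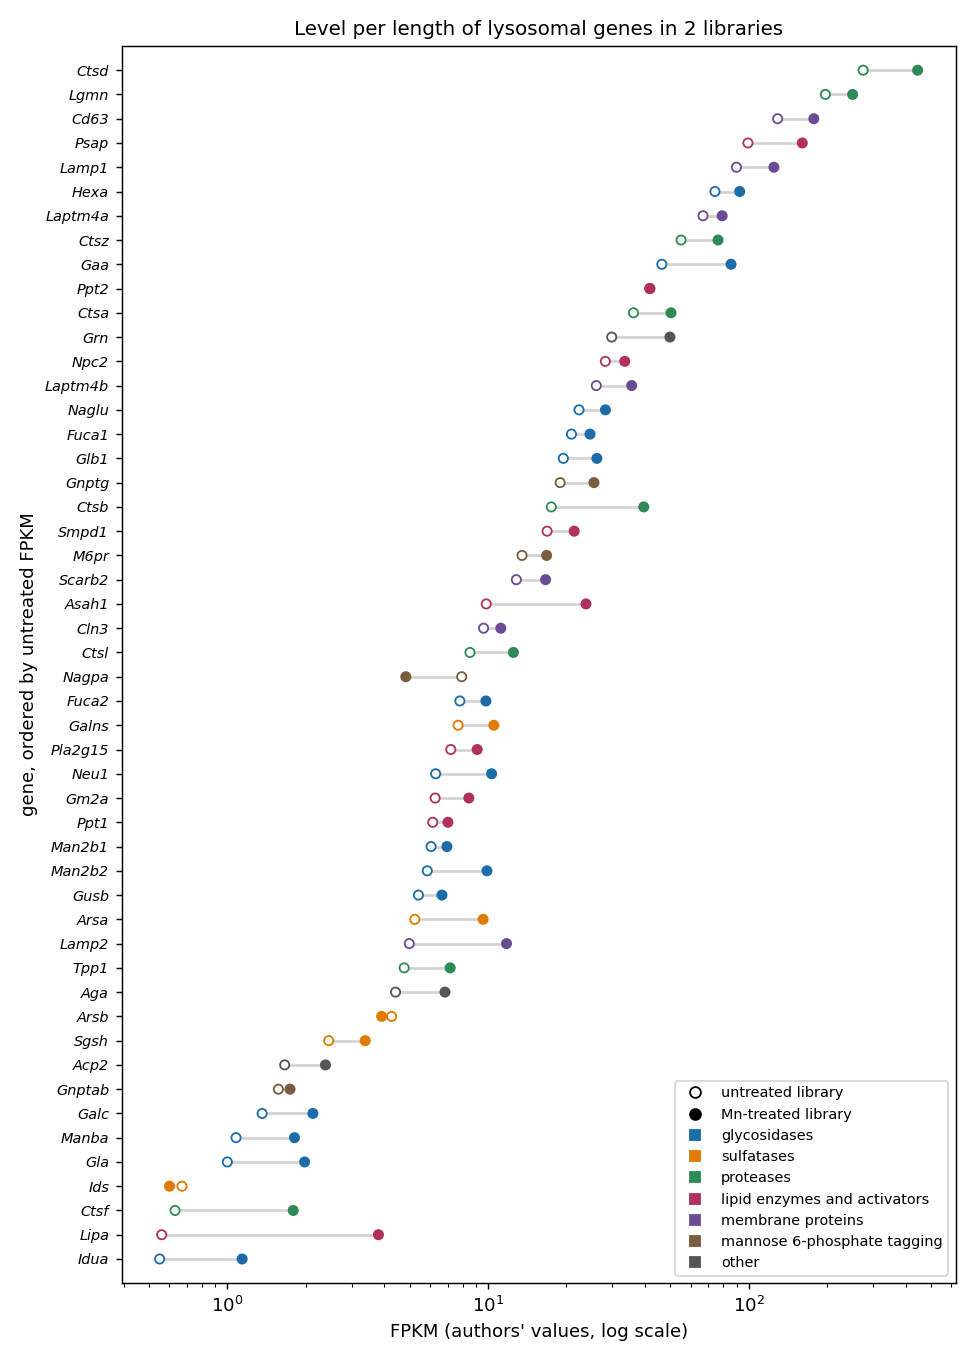
FPKM (authors' values, log axis) of the 50 lysosomal genes above 0 in both libraries, ordered by the untreated level. Open circles are the untreated and filled circles the Mn-treated library, and colours mark the roles. Filled circles lie to the right for nearly all genes, and Nagpa, Arsb and Ids are the 3 whose filled circle lies to the left.

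Together the 52 genes took 0.539% of the untreated mRNA reads (95% Wilson interval 0.535 to 0.543) and 0.769% of the Mn-treated reads (0.764 to 0.773). The ratio of these shares was 1.43, and 1.39 without Ctsd. Proteases made up 39.6% of the untreated and 41.6% of the Mn-treated lysosomal reads. Ctsd alone held 18.5% and 20.8%. Lgmn held 12.3% and 10.8%, and Psap 8.36% and 9.38%. Proteases were the largest role in both libraries. Glycosidases held 17.4% and 17.2%, lipid enzymes and activators 17.4% and 17.1%, and membrane proteins 18.5% and 17.1%.

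Related genes did not always have like ratios. Arsa was 0.94 above Arsb on the log2 scale, Lamp2 0.67 above Lamp1, Man2b2 0.57 above Man2b1, Fuca2 0.42 above Fuca1 and Laptm4b 0.21 above Laptm4a. In these 5 pairs the counting intervals did not overlap. They overlapped for Ppt1 and Ppt2, which differed by 0.23, and for Gnptab and Gnptg, which differed by 0.27. In level, Lamp1 stood 18-fold above Lamp2 per length in the untreated library and 10.6-fold above it in the Mn-treated library. The FPKM ratio of Man2b1 to Man2b2 went from 1.03 to 0.70, so their order turned. For the fucosidases the authors' FPKM ratio of Fuca1 to Fuca2 was 2.68 and 2.51, a smaller shift than that of the reads.

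Lysosomal genes outside the set were examined through a list of 42 further lysosomal proteins, of which 37 were measured. Of these, 12 (32.4%) were at least 1.5-fold higher and 1 lower, where 21.6% and 5.98% of all measured genes were. Their median log2 ratio was 0.37. With the middle gene set to 1, 7 of the 37 passed on the higher side, where 13.3% of all measured genes did. The lower one was Hyal1, a hyaluronidase, with 15 and 9 reads. It was named after its values were seen, as was Igf2r, the large mannose 6-phosphate receptor, which had 12 and 40 reads, at 1.63 [0.71 to 2.74]. Ctns, the cystine exporter, had 141 and 423 reads, at 1.52 [1.24 to 1.81]. Lmbrd1, which takes part in cobalamin export, had 274 and 560 reads, at 0.97, and Arsg, a sulfatase, had 129 and 245, at 0.86. By the authors' deposited fold changes Lmbrd1 is at 0.51 and Arsg at 1.09. Named after their values were seen, Cln8 is there at -0.20 where its reads give 0.66, and Ctso at 0.14 where they give 0.68. Naaa is there at 0.80 where its reads give 0.49. Mfsd8, a membrane protein lost in a form of neuronal ceroid lipofuscinosis, had 68 and 127 reads, at 0.83. The lowest among those with 50 or more reads in a library were Tpcn2 at -0.33, Gga1 at -0.25, Mcoln1 at -0.23 and Sort1 at -0.21. Tpcn2 and Mcoln1 are ion channels, Gga1 a sorting adaptor and Sort1 a sorting receptor. Of the 52 genes of the set, 49 carry the lysosome pathway in the authors' annotation. The 55 measured genes of that pathway outside the set share members with the list above. Of these 55, 15 (27.3%) were at least 1.5-fold higher and 1 lower, where 21.6% and 5.98% of all measured genes were. With the middle gene set to 1, 7 of the 55 were higher, a share close to the 13.3% of all measured genes.

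Transcription factors of lysosomal genes differed in both directions. Tfeb had 515 and 314 reads, giving a log2 ratio of -0.78 [-0.98 to -0.57], and Tfe3 had 2248 and 1968 reads, at -0.26 [-0.34 to -0.17]. Mitf, of the same family, had 14 and 60 reads, at 2.0 [1.18 to 2.99]. Zkscan3, described as a repressor of autophagy and lysosome genes, had 125 and 284 reads, at 1.12 [0.81 to 1.44]. Tfec had 0 reads in both libraries. These are transcript levels. TFEB and TFE3 are controlled largely by their phosphorylation and location in the cell, which was not measured.

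The authors' deposited log2 fold change, a ratio of FPKM values, lay within 0.2 of the read ratio for 45 of the 51 genes. It differed by more for 6, among them Npc1, whose untreated FPKM was 0. Of the 11828 measured genes above 0 FPKM in both libraries, which leave Npc1 out, 20.03% differed by more. In the authors' deposited table Lipa is at 2.76 where its reads give 2.0, Asah1 at 1.27 where they give 0.86, and Ctsf at 1.51 where they give 1.10. In the authors' deposited table Fuca2 is at 0.33 where its reads give 0.58. For Ids the sign differs, with -0.16 in the authors' deposited table and 0.21 by reads. The sixth is Npc1, for which the ratio depends on how 0 is replaced. What sets these values apart was not tested.

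**Figure D5:**
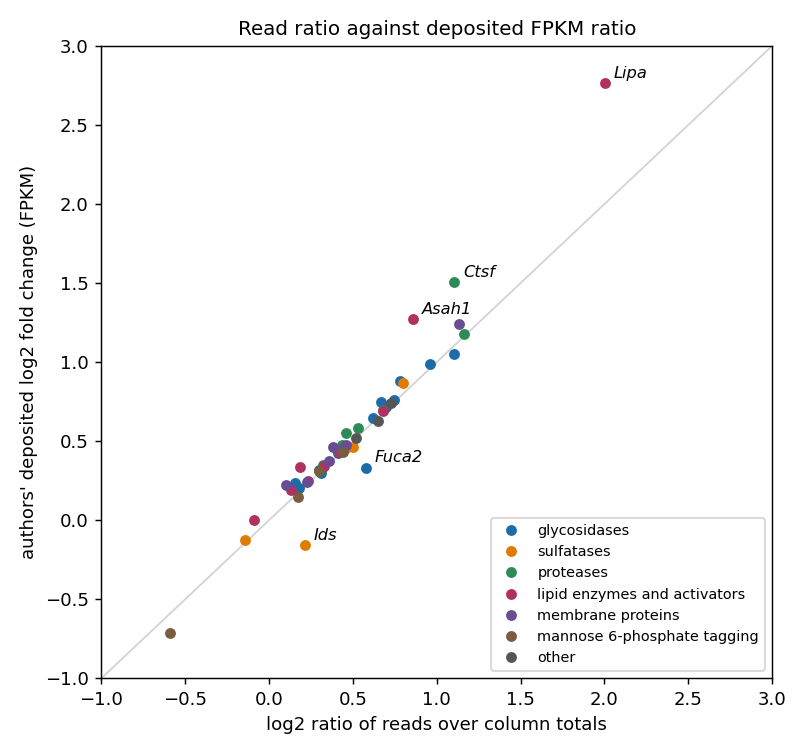
The authors' deposited log2 fold change of FPKM (y axis) against the log2 ratio of reads over library totals (x axis), 1 point per measured lysosomal gene except Npc1, coloured by role. The grey line marks equal values. Lipa, Asah1 and Ctsf lie above it and Fuca2 and Ids below.

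Circular RNAs, read across back-splice junctions in the same libraries, gave little on these genes. Of 2253 circular RNAs, 2 came from the set. One of Laptm4a, with intron sequence, had 5 untreated and 0 Mn-treated junction reads, and one of Scarb2, of annotated exons, had 0 and 5. The table held 11665 and 9433 junction reads in all, so differences of this size are not resolved at this depth.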

How the data were processed

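Values came from the deposited mRNA and circRNA tables. Tools named in the submitters' processing notes, without role or order, are fastp 0.18.0, Bowtie2 and StringTie, with mm9 as build. For the counter, its strand setting and the annotation release, the entry is "not given in the sources used here", so reads of overlapping antisense genes cannot be told apart. The mRNA table holds the authors' estimated counts per gene, which are fractional in at least 1 library for 13.3% of rows and for 8 measured members (Npc1, Ctsd, Gusb, Naglu, Cd63, Gnptg, Ctsl and Man2b2). It also holds FPKM values by the authors and log2 fold changes that the authors deposited, which follow the ratio of the FPKM values. The circRNA table holds deposited junction read counts. The deposited lncRNA and miRNA tables were not used here. Columns were matched to libraries by condition name, and 0 columns were left over.

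Estimated counts were rounded. The log2 ratio used count plus 0.5 over the column total. Where a symbol had several rows, that with most reads was kept (7 measured rows dropped). A gene was measured if its reads in both libraries summed to 20 or more, and 1.5-fold was the threshold. Intervals are exact conditional binomial (Clopper-Pearson), and the floor for a count of 0 was 3. Libraries had no stated molecular identifiers, and PCR copies are not separate molecules. Intervals and floors therefore account for counting error alone. No test across samples exists with 1 library per group. Scripts ran in Python 3.11.15 with scipy 1.17.1, and TMM factors came from edgeR 4.0.16. The ratio steps were tested on simulated data. The genes and lists were chosen with earlier results of these data known. All members were eligible to be named, and of the further lysosomal proteins the 4 highest and 4 lowest by ratio among those reaching 50 reads in a library. Promoters are RefSeq windows on GRCm38.p6 and carry no coordinates of the count tables.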

Additional observations from a re-analysis of the deposited data

How the results depend on the processing

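With 1 library per group no replicate could be left out, and no paired analysis was possible because each group holds 1 library. Medians over genes have no replicate error, so a shift was judged against 0.17, the median half-width of the members' counting intervals. Scaling by the median ratio lowered every log2 ratio by 0.18, and edgeR's TMM factors by 0.18 too. The number of genes at least 1.5-fold higher went from 18 to 10 with either scaling and to 6 at 2-fold. The 1 lower gene stayed with both scalings, and the number was 0 with a pseudocount of 5 or at 2-fold. With median-ratio and TMM scaling, the median of all measured members was 0.273 and 0.280, that of glycosidases 0.417 and 0.423, sulfatases 0.276 and 0.282, proteases 0.313 and 0.320, lipid enzymes and activators 0.146 and 0.153, membrane proteins 0.224 and 0.230, and tagging genes 0.0519 and 0.0585. The sign turned under them for Cln3 (-0.080 and -0.0734), Fuca1 (-0.0287 and -0.0221), Gnptab (-0.0112 and -0.00464) and Ppt1 (-0.0499 and -0.0433), and for Man2b1 with median-ratio scaling alone (-0.0044). With the authors' deposited fold changes it turned for Ids (-0.159) and Ppt2 (0.00242). The share of reads without Ctsd (log2 ratio 0.47), a setting chosen after seeing the data, and the other settings (a minimum of 100 reads, no minimum, or only members with whole counts) moved none of the medians or counts past these limits. Measured members with 100 or fewer untreated reads (Lipa, Idua, Gla, Ctsf, Ids, Npc1, Manba and Galc) are limited by depth.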
